A study of Mus musculus with 10 samples.

Results

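Endothelial and mural cell genes form a set of 37 genes that are typical of the blood vessel wall, of which 36 were measured and are described here. The members were taken by name: each is the transcript cluster whose only annotated gene is the member, and where a gene had several clusters the one with the highest mean over the 10 arrays was used, which applied to Rgs5 alone. Ly6c1 was skipped because its transcript cluster names several genes. Of the 36, 25 are genes of endothelial cells and 11 are genes of mural cells. They were measured beside 14807 named genes among 23238 transcript clusters.

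Endothelial cells line the inside of every vessel and are joined by adherens and tight junctions. In the brain these junctions, with transporters of the cell surface, make up the blood-brain barrier. Pericytes and smooth muscle cells, together called mural cells, wrap the endothelial tube, and are recruited to it by PDGF-B from the endothelium acting on the PDGF receptor beta of the pericyte. Growing tumours draw in vessels from the host tissue, mainly through VEGF-A, whose receptors sit on the endothelium, whereas a culture of neural stem cells has no vessels.

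The samples were tumours and cultures from mice homozygous for floxed p53 and Rb (Trp53 and Rb1), in which an adenovirus that carries Cre recombinase (AdCre) deletes both tumour suppressor genes in the cells it enters. The first group was 3 primitive neuroectodermal tumours (PNET, embryonal tumours) that arose after AdCre was given into the brain ventricles. The second was 4 oligo-astrocytomas (mixed gliomas): 1 that arose after the same ventricular AdCre (number 44, called the induced oligo-astrocytoma) and 3 that grew from grafted neurospheres transduced with AdCre in culture (numbers 4, 5 and 6). The cultures were neurospheres at passage 3, 2 of them transduced with AdCre and 1 with a control adenovirus that carries green fluorescent protein (AdGFP). The labels give all 10 samples the floxed genotype on a mixed C57, FVB and mainly 129 Ola background, so the AdGFP culture carries the floxed alleles too. Tumour tissue was dissected, so it holds tumour cells and whatever host vessels and immune cells were within it. In the grafts the vessels can come from the recipient brain, and the labels give neither the strain nor the genotype of the recipients. All PNET came from ventricular injection and 3 of 4 oligo-astrocytomas from grafts, so tumour type and derivation can hardly be told apart. Nothing in the labels says that replicates are separate animals, and the p-values cover only the spread seen between these samples, which may be technical.

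Values are log2 expression per transcript cluster on Affymetrix mouse exon arrays, on which 1 unit is a doubling. Array medians lay between 5.87 and 6.06 and lower quartiles between 4.22 and 4.44, and the number of arrays limits the precision. Rb1 read 7.48 to 7.64 in PNET, 6.36 to 7.24 in oligo-astrocytomas, 6.34 and 6.65 in AdCre spheres and 8.49 in the AdGFP sphere, but probes outside the deleted stretch would not show a deletion. Trp53 had no transcript cluster of its own. Synaptophysin (Syp), a protein of neuronal vesicles, read 9.97 to 11.08 in PNET, 6.41 to 7.47 in oligo-astrocytomas and 7.52 to 7.78 in spheres. Olig2, a factor of the oligodendrocyte lineage, read 5.76 to 6.15 in PNET, 8.88 to 9.46 in oligo-astrocytomas and 9.75 to 10.31 in spheres. Sox2, a neural stem cell factor, read 4.01 to 5.0 in PNET, 9.77 to 10.28 in oligo-astrocytomas and 10.96 to 11.33 in spheres. Changes are log2 differences ± SE from limma, and a member is said to have risen or fallen only where its Benjamini-Hochberg adjusted p over all transcript clusters was under 0.05.

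The 250 bases before the RefSeq start are shown for 3 members: Cd34 and Emcn, endothelial genes that were higher in every tumour than in every sphere, and Vtn, the mural gene with the largest rise. They are read 5′ to 3′ on the gene's strand, which is the plus strand for each, in build GRCm38.p6, from chr1:194938571-194938820 for Cd34, chr3:137340828-137341077 for Emcn and chr11:78498870-78499119 for Vtn. Capitals mark AGGAAG on either strand, a core that ETS family factors such as Erg and Fli1 can bind.
Cd34: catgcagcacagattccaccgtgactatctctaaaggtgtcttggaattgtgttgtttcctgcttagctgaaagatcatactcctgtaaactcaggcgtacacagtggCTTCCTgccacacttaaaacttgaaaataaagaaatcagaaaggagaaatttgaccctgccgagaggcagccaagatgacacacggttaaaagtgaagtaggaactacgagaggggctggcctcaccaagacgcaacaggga
Emcn: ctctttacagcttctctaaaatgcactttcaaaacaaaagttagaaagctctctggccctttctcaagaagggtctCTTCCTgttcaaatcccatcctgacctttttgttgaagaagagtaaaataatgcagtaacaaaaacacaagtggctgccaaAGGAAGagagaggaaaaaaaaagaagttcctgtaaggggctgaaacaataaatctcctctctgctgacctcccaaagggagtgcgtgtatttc
Vtn: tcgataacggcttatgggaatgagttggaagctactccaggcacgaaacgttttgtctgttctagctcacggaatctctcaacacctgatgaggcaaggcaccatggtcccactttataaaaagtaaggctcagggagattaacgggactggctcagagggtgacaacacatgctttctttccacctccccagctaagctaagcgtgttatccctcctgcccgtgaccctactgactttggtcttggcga
The Cd34 window holds 1 match, whose first base lies 142 bases before the start, the Emcn window holds 2, at 174 and 93 bases before it, and the Vtn window holds none. RefSeq windows were searched for 21 of the 36 measured members, and the other members enter none of the counts below. The motif was in at least 1 window of 10 of 13 endothelial members (76.9%) and of 0 of 8 mural members, against 32.3% of 27025 genes, Egfl7 and Erg having several windows each. It is 1 of 7 motifs searched and was picked after the matches had been seen. Of the others, CCGGAAG, on either strand, was in 0 endothelial and 0 mural members (7.83% of genes), ACAGGAAG, which contains AGGAAG, in 2 and 0 (3.30%), and CAGGAA, which can overlap it, in 7 and 3 (28.3%). AACAATG on either strand was in 1 and 1 (3.78%), TATAAA on the gene's strand in 1 and 1 (8.94%), and the CArG box in 0 and 0 (1.62%). A match describes the letters only.

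Set against the cultures, the vessel genes split into those that were higher in every tumour and those that were not. For 17 of 36 members all 7 tumours read above all 3 spheres, which held for 8.56% of all transcript clusters. These were 12 endothelial members, namely Kdr, Tek, Tie1, Eng, Robo4, Ptprb, Cdh5, Pecam1, Esam, Emcn, Cd34 and Vwf, and 5 mural members, namely Pdgfrb, Rgs5, Vtn, Abcc9 and Anpep. All tumours read below all spheres for 2 members, Plvap and Sox18, against 24.6% of all transcript clusters, and the remaining 17 overlapped. In all 3 spheres 29 members lay below the array's median, a count that was not taken over all transcript clusters. In bulk tissue, fewer vessel cells and less RNA per vessel cell cannot be told apart.

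Of the 9 junction and surface proteins of the endothelium, Cdh5, Pecam1, Emcn, Cd34 and Esam were higher in every tumour than in every sphere. Cdh5 (VE-cadherin), the adhesion protein of endothelial adherens junctions, read 6.68, 6.18 and 6.71 in PNET, 6.50 in the induced oligo-astrocytoma, 6.80, 6.96 and 7.70 in the grafted ones, 4.82 and 4.76 in AdCre spheres and 4.61 in the AdGFP sphere. Pecam1 (CD31), an adhesion protein of the endothelial border, read 6.14, 6.05 and 6.77 in PNET, 6.07 in the induced oligo-astrocytoma, 6.34, 6.25 and 6.24 in the grafted ones, 4.84 and 4.90 in AdCre spheres and 4.59 in the AdGFP sphere. Neither gene's tumours overlapped its spheres, while PNET and oligo-astrocytomas overlapped each other. Emcn (endomucin), a sialomucin of capillary and venous endothelium, read 5.56, 5.59 and 6.78 in PNET, 5.72 in the induced oligo-astrocytoma, 6.31, 6.75 and 6.22 in the grafted ones, 3.72 and 3.82 in AdCre spheres and 3.54 in the AdGFP sphere. The sphere values of Emcn lie below the lower quartile of their arrays, so that little signal can be claimed there. Cd34, a sialomucin of capillary endothelium and of blood progenitors, read 5.89, 6.19 and 6.39 in PNET, 7.39 in the induced oligo-astrocytoma, 7.56, 6.67 and 7.29 in the grafted ones, 4.88 and 4.45 in AdCre spheres and 4.62 in the AdGFP sphere. Esam, a junction adhesion molecule, read 5.62 to 6.02 in PNET, 5.87 to 6.44 in oligo-astrocytomas and 5.14 to 5.35 in spheres. Cd34 alone among these 5 separated the tumour types too, with every PNET below every oligo-astrocytoma.

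Cldn5, Podxl, Plvap and Icam2 did not share that pattern. Cldn5, the main tight junction claudin of the blood-brain barrier, read 4.60, 5.48 and 4.98 in PNET, 6.37 in the induced oligo-astrocytoma, 6.39, 5.07 and 6.02 in the grafted ones, 4.50 and 4.76 in AdCre spheres and 4.58 in the AdGFP sphere. The PNET values of Cldn5 overlapped those of the spheres, and the 4 oligo-astrocytomas lay above them. Podxl (podocalyxin), a sialomucin of the luminal vessel surface that podocytes and some neural cells also make, read 8.59, 8.56 and 9.28 in PNET, 7.13 in the induced oligo-astrocytoma, 7.32, 7.21 and 7.88 in the grafted ones, 6.74 and 7.54 in AdCre spheres and 6.59 in the AdGFP sphere. All 3 PNET exceeded every other array, whereas oligo-astrocytomas and spheres overlapped. Plvap, the protein of the diaphragms of fenestrated vessels, which barrier vessels lack, read 5.50, 5.31 and 6.30 in PNET, 5.37 in the induced oligo-astrocytoma, 5.14, 5.71 and 5.20 in the grafted ones, 6.59 and 7.68 in AdCre spheres and 7.18 in the AdGFP sphere. It ran the other way, with each sphere above each tumour. Icam2, an adhesion molecule of resting endothelium, overlapped between all groups, at 4.77 to 4.84 in PNET, 4.21 to 5.08 in oligo-astrocytomas and 4.53 to 5.22 in spheres. It lay below the array median on all 10 arrays, where a change is harder to see.

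The receptors were led by Kdr, through which VEGF-A drives endothelial growth, with values of 8.43, 7.18 and 7.30 in PNET, 7.06 in the induced oligo-astrocytoma, 7.0, 9.50 and 8.94 in the grafted ones, 5.86 and 5.47 in AdCre spheres and 5.04 in the AdGFP sphere. All tumours exceeded all spheres, and grafted tumours 5 and 6 stood highest. Ptprb, a phosphatase that restrains the angiopoietin receptor and VE-cadherin, read 5.37, 6.30 and 6.38 in PNET, 6.42 in the induced oligo-astrocytoma, 6.58, 6.21 and 6.34 in the grafted ones, 4.71 and 4.93 in AdCre spheres and 4.58 in the AdGFP sphere. PNET 1 had the lowest value of the tumours, and all tumours lay above all spheres. Ramp2, which joins Calcrl to form the adrenomedullin receptor, read 5.56, 6.11 and 6.27 in PNET, 7.31 in the induced oligo-astrocytoma, 7.91, 7.05 and 8.24 in the grafted ones, 7.55 and 7.36 in AdCre spheres and 7.18 in the AdGFP sphere. Every PNET was below every other array for this gene, and oligo-astrocytomas and spheres overlapped. Eng (endoglin), a TGF-beta co-receptor of growing endothelium, read 6.42 to 6.96 in PNET, 6.80 to 7.10 in oligo-astrocytomas and 5.86 to 5.91 in spheres. The angiopoietin receptor Tek read 4.41 to 5.12 in PNET, 4.79 to 5.66 in oligo-astrocytomas and 4.05 to 4.14 in spheres. Its relative Tie1 read 5.78 to 5.94 in PNET, 5.95 to 6.41 in oligo-astrocytomas and 5.12 to 5.45 in spheres. Eng, Tek and Tie1 were thus higher in every tumour than in any sphere. Robo4, a guidance receptor that steadies vessels, spanned only 5.13 to 5.79 over all arrays. Flt1, the VEGF receptor that also acts as a decoy, overlapped between tumours and spheres, at 5.20 to 5.73 in PNET, 5.52 to 6.58 in oligo-astrocytomas and 5.05 to 5.83 in spheres.

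**Figure D1:**
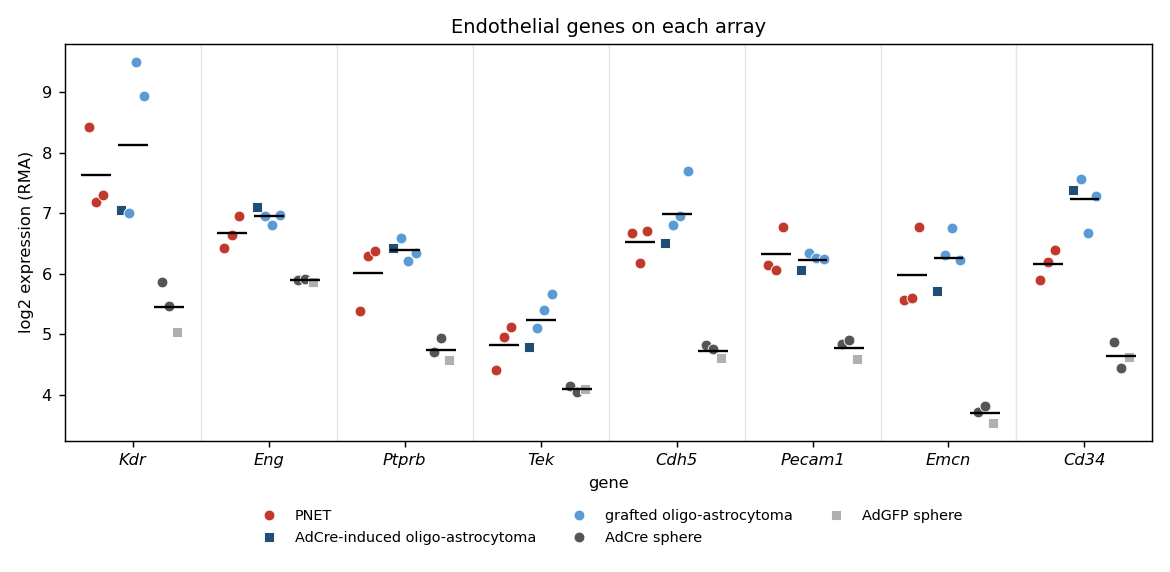
Log2 expression (vertical axis) of 8 endothelial genes (horizontal axis) on each of the 10 arrays, 1 point per array, with a bar at the mean of PNET (n = 3), of oligo-astrocytomas (n = 4) and of spheres (n = 3). For each of the 8 genes the 7 tumours lie above the 3 spheres, and for Cd34 the 3 PNET lie below the 4 oligo-astrocytomas.

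The transcription factors and most secreted members stayed near the level of the spheres. Sox18, a factor of vessel development and the brightest of the 3 factors in tumours, read 5.74, 6.0 and 6.05 in PNET, 5.52 in the induced oligo-astrocytoma, 5.69, 5.81 and 5.99 in the grafted ones, 6.06 and 6.17 in AdCre spheres and 6.16 in the AdGFP sphere. Sox17, its relative of arterial endothelium, spanned 4.68 to 5.34 over all arrays, and Erg, an ETS factor that keeps endothelial identity, 4.93 to 5.84. Each sphere was above each tumour for Sox18, by a small margin, and the groups overlapped for Sox17 and Erg. Egfl7, a matrix protein secreted by endothelium, read 6.38, 6.77 and 6.79 in PNET, 6.83 in the induced oligo-astrocytoma, 6.74, 6.57 and 6.89 in the grafted ones, 6.68 and 6.99 in AdCre spheres and 6.75 in the AdGFP sphere. Its arrays spanned 6.38 to 6.99 in all, and Nos3, the endothelial nitric oxide synthase, spanned 5.52 to 5.83. Sox17, Erg and Nos3 lay below the array median on all 10 arrays, where a change is harder to see. Vwf, the clotting protein stored in endothelial granules, read 5.67 to 6.78 in PNET and 6.19 to 7.11 in oligo-astrocytomas, above the 5.57 to 5.65 of the spheres.

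Of the genes particular to brain endothelium, Abcb1a, the drug efflux pump P-glycoprotein of the blood-brain barrier, read 4.88, 6.22 and 6.21 in PNET, 6.17 in the induced oligo-astrocytoma, 6.57, 6.31 and 8.01 in the grafted ones, 5.02 and 4.95 in AdCre spheres and 4.73 in the AdGFP sphere. Slco1a4, an organic anion transporter of brain vessels, read 3.19, 5.30 and 3.99 in PNET, 5.66 in the induced oligo-astrocytoma, 4.89, 4.67 and 5.31 in the grafted ones, 3.60 and 3.13 in AdCre spheres and 3.26 in the AdGFP sphere. For both genes PNET 1 was the lowest tumour and lay within the range of the spheres, while the other 6 tumours were higher than every sphere. Abcb1a was highest in grafted tumour 6, and Slco1a4 in the induced oligo-astrocytoma. The sphere, PNET 1 and PNET 3 values of Slco1a4 are below the lower quartile of their arrays.

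Of the 7 pericyte genes 4 rose over AdCre spheres in PNET, against 11% of all transcript clusters, and 4 in oligo-astrocytoma, against 10.1%, Vtn most. Vtn (vitronectin), an adhesive matrix protein that pericytes make in the brain, read 11.16, 9.72 and 10.17 in PNET, 7.67 in the induced oligo-astrocytoma, 7.55, 8.47 and 10.82 in the grafted ones, 5.66 and 5.51 in AdCre spheres and 5.32 in the AdGFP sphere. The 3 PNET were high throughout and the oligo-astrocytomas were scattered, with grafted tumour 6 among the PNET. Pdgfrb, the receptor by which pericytes are recruited, read 7.26, 6.76 and 7.98 in PNET, 6.55 in the induced oligo-astrocytoma, 6.94, 6.56 and 7.67 in the grafted ones, 5.90 and 5.34 in AdCre spheres and 4.82 in the AdGFP sphere. Rgs5, a regulator of G protein signalling typical of pericytes, read 7.13, 7.61 and 8.16 in PNET, 6.62 in the induced oligo-astrocytoma, 7.60, 7.76 and 8.30 in the grafted ones, 5.78 and 5.84 in AdCre spheres and 5.53 in the AdGFP sphere. Tumours and spheres were apart for Pdgfrb and Rgs5, and PNET and oligo-astrocytomas overlapped. The second transcript cluster of Rgs5 gave the same order of tumours over spheres, at 5.22 to 6.57 in PNET, 5.51 to 6.81 in oligo-astrocytomas and 3.60 to 4.41 in spheres. Abcc9, a subunit of the potassium channel of pericytes, read 5.25 to 6.02 in PNET, 5.44 to 5.97 in oligo-astrocytomas and 4.55 to 4.69 in spheres. The surface peptidase Anpep read 5.16 to 5.90 in PNET, 4.90 to 6.52 in oligo-astrocytomas and 4.34 to 4.50 in spheres. Both kept the tumours above the spheres. Kcnj8, the pore of the channel that Abcc9 serves, overlapped in all groups and spanned 5.31 to 6.08. Des (desmin), an intermediate filament of muscle and pericytes, lay between 4.35 and 4.79 on every array but PNET 1, which read 5.84.

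Of the 4 contractile genes of smooth muscle, Tagln alone read higher in every PNET than on every other array. Acta2 had its highest group mean in PNET, but PNET 2 lay within the range of the oligo-astrocytomas. Acta2, the smooth muscle actin, read 9.44, 7.09 and 8.25 in PNET, 6.62 in the induced oligo-astrocytoma, 7.02, 6.86 and 7.26 in the grafted ones, 6.21 and 6.87 in AdCre spheres and 5.16 in the AdGFP sphere. PNET 1 was the highest array, and the oligo-astrocytomas overlapped the spheres. Tagln (transgelin), an actin-binding protein of smooth muscle, read 6.91, 6.36 and 7.01 in PNET, 5.88 in the induced oligo-astrocytoma, 6.0, 6.15 and 6.07 in the grafted ones, 6.09 and 5.40 in AdCre spheres and 5.45 in the AdGFP sphere. The 3 PNET were above all 7 other arrays for Tagln. Cnn1 (calponin), which damps contraction, read 4.52 to 4.83 in PNET, 4.42 to 4.67 in oligo-astrocytomas and 4.77 to 5.43 in spheres, with every oligo-astrocytoma below every sphere and the PNET overlapping both. Myh11, the heavy chain of smooth muscle myosin and the most specific of these genes, spanned 4.54 to 5.03 over all 10 arrays. It did not separate tumours and cultures, but it lay below the array median on every array, where a change is harder to see.

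**Figure D2:**
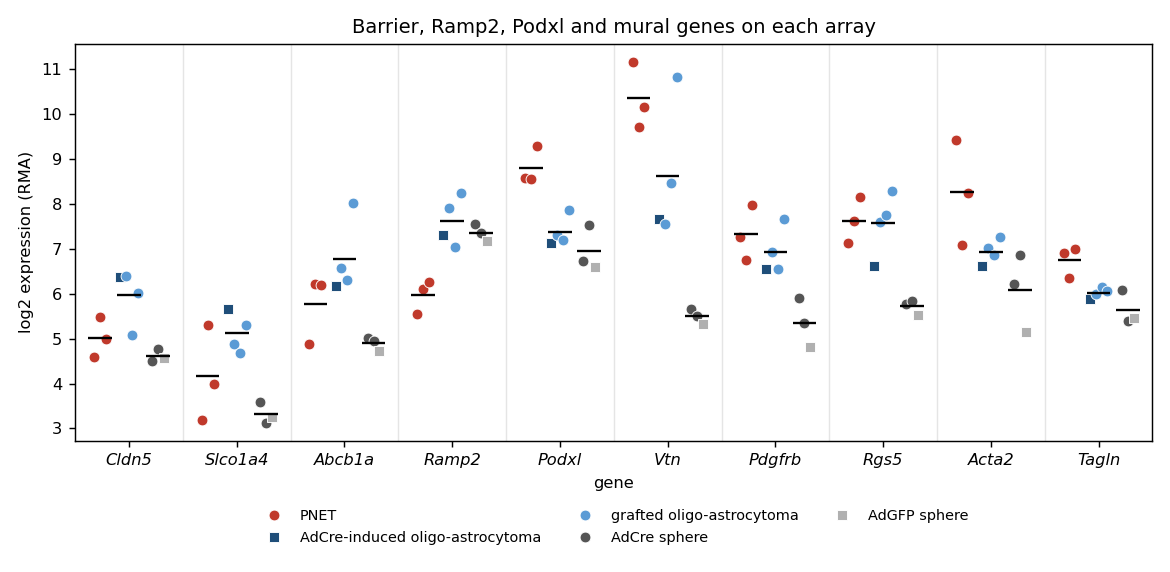
Log2 expression (vertical axis) of Cldn5, Slco1a4, Abcb1a, Ramp2 and Podxl and of 5 mural genes (horizontal axis), 1 point per array, with bars at the group means as for the endothelial genes. Ramp2 is lowest in the 3 PNET, Podxl and Tagln are highest in them, and the 3 PNET exceed the spheres by the widest margin for Vtn.

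PNET against oligo-astrocytoma asks whether the embryonal tumours and the gliomas differ in vessel genes. Few members passed the test: 1 was higher in PNET and 2 were lower, which is 8.33% of 36 members, against 12.7% of all transcript clusters called in either direction, 5.53% higher and 7.2% lower. Podxl was 1.43 ± 0.28 higher in PNET (limma adjusted p = 0.0105, 95% interval 0.79 to 2.06). Ramp2 was lower, with a change of -1.65 ± 0.30 (adjusted p = 0.00735, interval -2.33 to -0.97). Cd34 was lower, with a change of -1.07 ± 0.24 (adjusted p = 0.0189, interval -1.62 to -0.53). The cultures, which have no vessels, read Podxl at 6.59 to 7.54 and Ramp2 at 7.18 to 7.55, overlapping the oligo-astrocytomas. Whether the differences of Podxl and Ramp2 lie in vessel cells was not tested. The call for Cd34 was lost without PNET 1 (adjusted p = 0.0596) and without PNET 2 (0.0575). Under quantile normalization and under centring on the array median the split was 2 higher and 2 lower, Tagln being the added gene. Without PNET 2 it was 3 higher and 2 lower, with Acta2 and Tagln added and Slco1a4 in place of Cd34. Without PNET 1 it was 1 higher and 1 lower, without grafted tumour 5 1 higher and 4 lower, with Cldn5 and Flt1 added, and without grafted tumour 6 2 higher and 2 lower, with Vtn added.

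Over all members, called or not, the differences had these signs. Of the 25 endothelial members 20 had a negative difference and 5 a positive one, with a median of -0.33, and of the 11 mural members 8 were positive and 3 negative, with a median of 0.23. The median over all named genes was -0.01. All 8 receptors had negative differences, Ramp2 being the 1 that passed, and all 4 contractile genes positive ones, of which none passed. With the AdCre-induced tumour alone as oligo-astrocytoma, the endothelial members Kdr (0.58), Emcn (0.26), Tek (0.04) and Cdh5 (0.02) and the mural member Abcc9 (0.001) turned positive. The barrier genes had among the widest uncalled differences: Abcb1a -1.0 ± 0.48 (adjusted p = 0.229, interval -2.07 to 0.07), Slco1a4 -0.97 ± 0.45 (0.217) and Cldn5 -0.94 ± 0.34 (0.110). On the mural side Vtn was at 1.72 ± 0.72 (adjusted p = 0.170, interval 0.09 to 3.35), Acta2 at 1.32 ± 0.47 (0.104) and Tagln at 0.73 ± 0.22 (0.0632). Of the genes higher in every tumour than in every sphere, Pecam1 differed by 0.10 ± 0.20 (interval -0.34 to 0.54, adjusted p = 0.829). Intervals were wider for Cdh5, at -0.47 ± 0.28 (-1.09 to 0.155), and Emcn, at -0.27 ± 0.33 (-1.02 to 0.48). Egfl7, which overlapped between tumours and spheres, differed by -0.11 ± 0.17 (-0.50 to 0.28, adjusted p = 0.764). Kdr differed by -0.49 ± 0.63, and its interval of -1.90 to 0.93 leaves a wide range. The groups did not overlap for 7 members, which were Podxl and Tagln on the higher side and Ramp2, Cd34, Erg, Tie1 and Robo4 on the lower, against 23.4% of all transcript clusters, 10.6% higher and 12.8% lower.

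**Figure D3:**
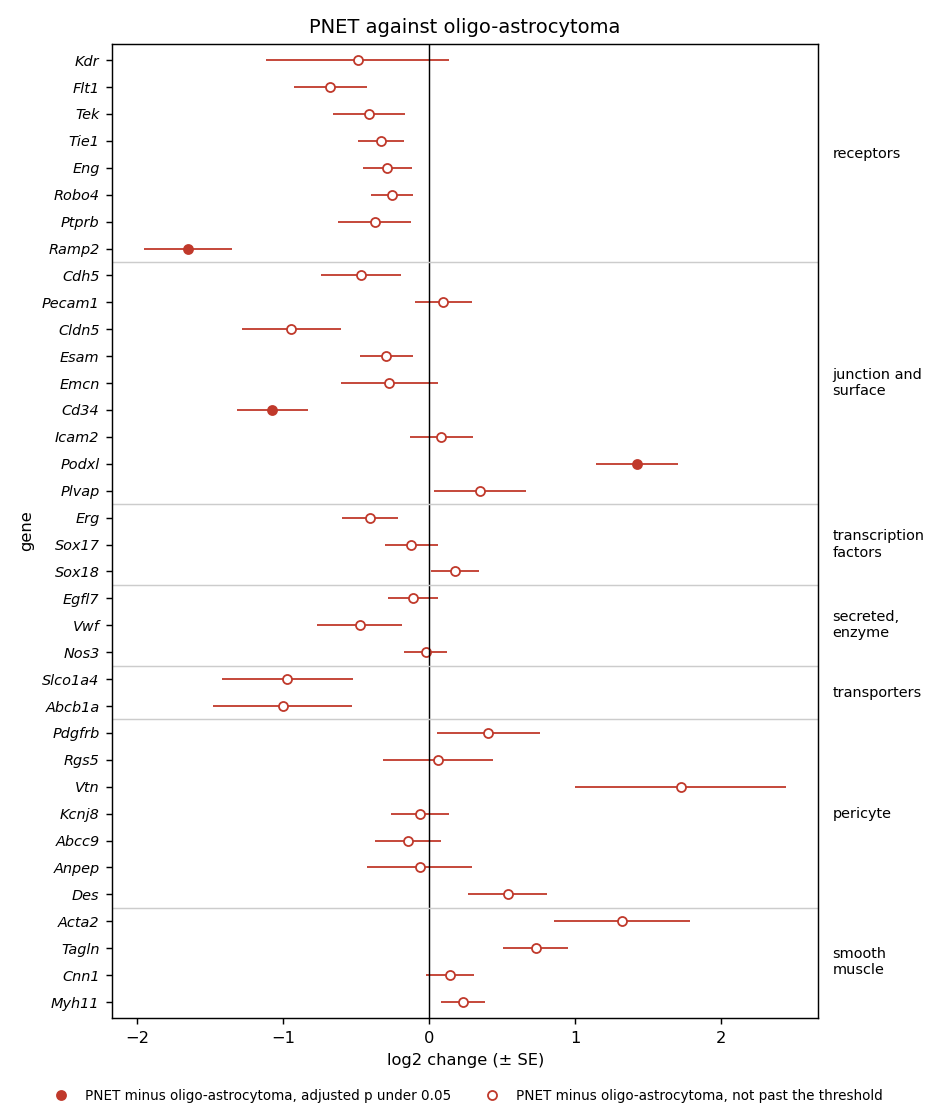
Difference of PNET minus oligo-astrocytoma (horizontal axis, log2, bars ± SE) for each of the 36 measured genes (vertical axis), grouped by role. Filled points passed an adjusted p of 0.05 and are Podxl, higher in PNET, and Ramp2 and Cd34, lower; the 8 receptors all lie left of 0.

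The vessel genes also varied between single tumours. The difference of each member from the mean of the 3 spheres was summarised by its median in each tumour. Over the 25 endothelial members the median was 0.07, 0.74 and 0.60 in PNET, 0.65 in the induced oligo-astrocytoma, then 1.01, 0.58 and 1.08 in the grafted ones. PNET 1 had the lowest of these medians, and the other 6 tumours stood at 0.58 or more. By role PNET 1 was near the other tumours over the 9 junction and surface proteins, at 1.25, where the other tumours ran from 0.92 to 1.74. It was at 0.38 over the 8 receptors, -0.31 over the 3 transcription factors, -0.10 over the 3 secreted proteins and enzymes and -0.08 over the 2 brain endothelial genes. Over the 11 mural members the median was 1.26, 0.71 and 1.36 in PNET, 0.54 in the induced oligo-astrocytoma, then 0.52, 0.78 and 1.11 in the grafted ones. Over the 14807 named genes the same median lay between -0.36 and -0.31 in all 7 tumours. PNET 1 was the lowest tumour for 15 of the 25 endothelial members, and a PNET was the lowest for 20. An oligo-astrocytoma was the highest tumour for 19 of them, grafted tumour 6 for 8. For the mural members a PNET was the highest tumour for 8 of 11. These rankings were not counted over all transcript clusters, so they describe the members only.

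**Figure D4:**
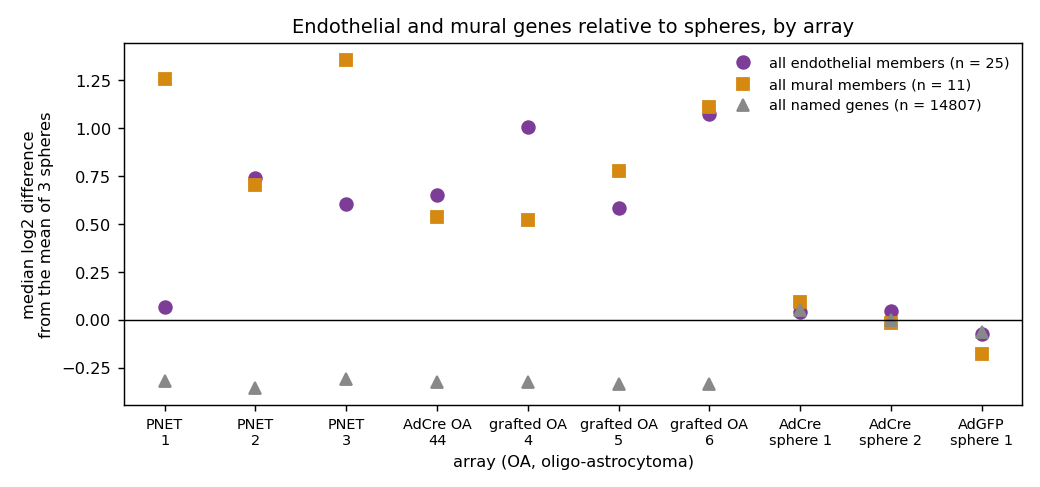
Median log2 difference from the mean of the 3 spheres (vertical axis) on each array (horizontal axis) for the 25 endothelial genes, the 11 mural genes and all 14807 named genes. PNET 1 has an endothelial median of 0.07 beside a mural median of 1.26, and the named genes lie at -0.36 to -0.31 in every tumour.

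PNET against AdCre spheres gives the vessel genes of the embryonal tumour over the cultured level. Of 36 members 13 were higher and 2 lower in PNET, or 41.7%, against 37% of all transcript clusters in either direction. By direction the background was 11% higher and 25.9% lower. The median member differed by 0.67 and the median named gene by -0.36. Vtn was 4.77 ± 0.86 higher (limma adjusted p = 0.00279), Emcn 2.21 ± 0.40 (0.00273) and Rgs5 1.82 ± 0.45 (0.0120). Cdh5 was 1.73 ± 0.33 higher (adjusted p = 0.00355), Acta2 1.72 ± 0.56 (0.0377) and Pdgfrb 1.72 ± 0.42 (0.0118). The other rises, of Podxl, Cd34, Pecam1, Ptprb, Tagln, Abcc9 and Eng, ran from 0.77 to 1.67. Ramp2 changed by -1.47 ± 0.36 (adjusted p = 0.0115) and Plvap by -1.44 ± 0.38 (0.0160). Kdr, at 1.97 ± 0.75, did not pass (adjusted p = 0.0669). It passed with all 3 spheres as 1 group (0.0218), with brighter transcript clusters only (0.0375), with the compared groups only (0.0156) and with a replicate block (0.0271). The block fit leaves 1 residual degree of freedom. Under every other alternative, each leave-out of 1 array included, Kdr did not pass.

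These calls rest on 2 AdCre spheres. Without AdCre sphere 1 the count was 8 higher and 1 lower, and without AdCre sphere 2 it was 7 and 1. Cdh5, Pecam1, Emcn, Cd34, Podxl and Vtn passed in PNET under every alternative that tested them, with Pecam1 and Emcn left out by the filter for brighter transcript clusters. Abcc9 kept its call under 6 of 12 alternatives and Acta2 under 7 of 13. Eng and Tagln each kept theirs under 10 of 13, and Ptprb under 10 of 12. Eng was lost without either AdCre sphere, Ptprb without sphere 1 and Tagln without sphere 2. Acta2 was lost without PNET 1 (adjusted p = 0.0628), PNET 3 (0.0795) or either AdCre sphere (0.206 and 0.0705). Rgs5 was lost without AdCre sphere 1 (0.0665) or 2 (0.0542), Pdgfrb without sphere 2 (0.0863), Ramp2 without sphere 1 (0.0730), and Plvap without sphere 2 (0.139) or PNET 2 (0.0514).

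Oligo-astrocytoma against the same AdCre spheres gave 18 members higher and 2 lower, or 55.6%, against 32.8% of all transcript clusters in either direction, 10.1% higher and 22.8% lower. The median member differed by 0.83 and the median named gene by -0.35. By compartment, 14 of 25 endothelial members rose and 1 fell, and 4 of 11 mural members rose and 1 fell. In PNET these counts were 7 and 2 of 25, and 6 and 0 of 11, and since both comparisons use the same spheres they are not independent and the difference between the counts was not tested. With all 3 spheres as 1 group, 11 endothelial members rose in PNET and 15 in oligo-astrocytoma. Vtn was 3.04 ± 0.82 higher (limma adjusted p = 0.0200) and Cd34 2.57 ± 0.27 (0.000515). Emcn was 2.48 ± 0.38 higher (adjusted p = 0.00172), Kdr 2.46 ± 0.71 (0.0266), Cdh5 2.20 ± 0.31 (0.00131) and Abcb1a 1.78 ± 0.54 (0.0320). The other 12 rises ran from 0.77 for Tie1 to 1.77 for Slco1a4 and included Rgs5, Ptprb, Pecam1, Cldn5, Pdgfrb, Tek, Vwf, Eng, Abcc9 and Esam. Plvap changed by -1.79 ± 0.36 (adjusted p = 0.00574) and Cnn1 by -0.66 ± 0.19 (0.0245). Acta2, at 0.40 ± 0.53, did not pass (adjusted p = 0.597).

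Leaving out AdCre sphere 1 left 6 higher and 2 lower members in oligo-astrocytoma, and leaving out AdCre sphere 2 left 7 and 0. Cdh5, Pecam1, Emcn, Cd34, Eng and Ptprb passed under every alternative that tested them. The filter for brighter transcript clusters left out Pecam1, Emcn and Ptprb. Cldn5 kept its call under 6 of 13 alternatives, Vwf under 7 of 14, Slco1a4 under 7 of 13 and Pdgfrb under 10 of 14. Without tumour 44, Cldn5 (adjusted p = 0.0523), Vwf (0.0658) and Slco1a4 (0.0519) were lost. Pdgfrb was lost without grafted tumour 4 (0.0605) or 6 (0.0544). These calls, and those of Tek, Tie1, Rgs5 and Abcc9, were also lost without either AdCre sphere. Vtn was lost without either AdCre sphere (adjusted p = 0.0911 and 0.0979), Kdr without either sphere (0.0944 and 0.135) or without grafted tumour 6 (0.0553). Abcb1a was lost without either sphere (0.126 and 0.132) or grafted tumour 4 (0.0507), Plvap without sphere 2 (0.0582), and Cnn1 without sphere 2 (0.197) or grafted tumour 5 (0.0536).

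**Figure D5:**
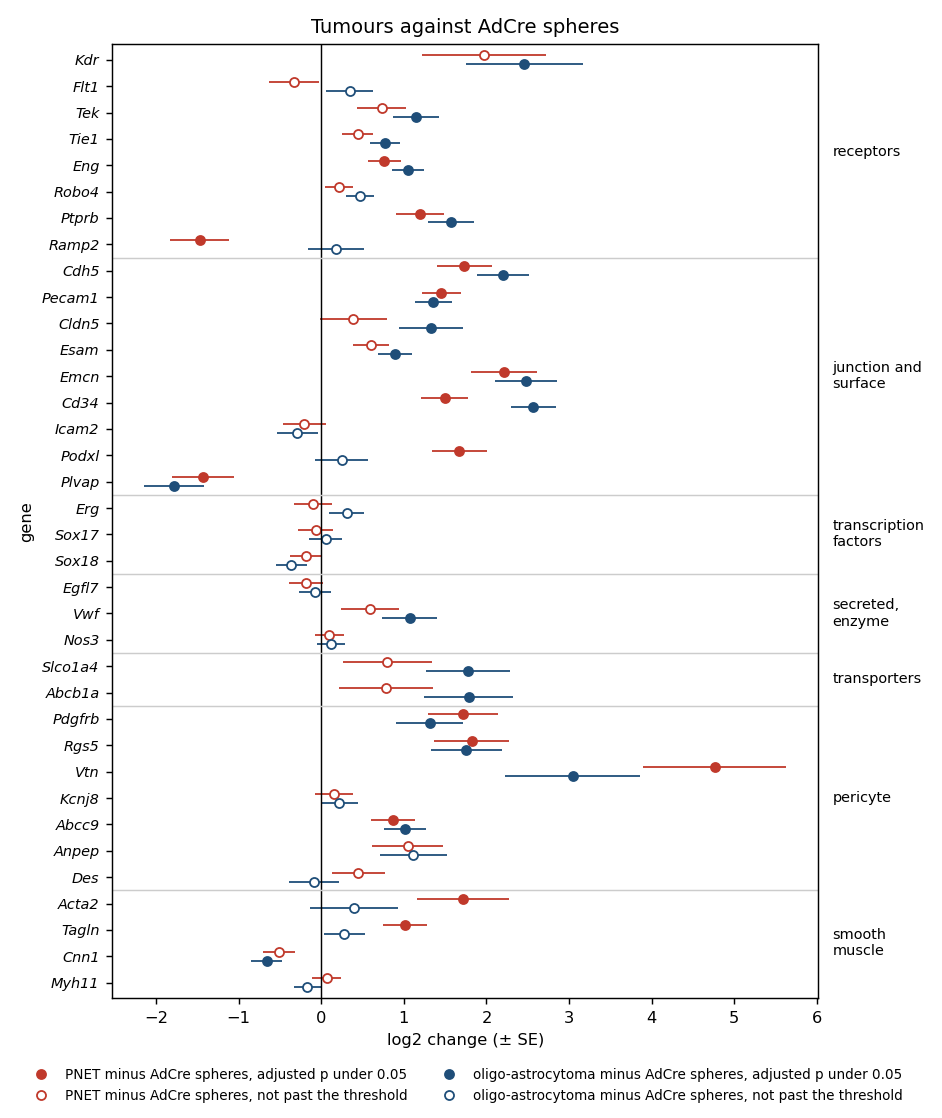
Difference of PNET and of oligo-astrocytoma from the AdCre spheres (horizontal axis, log2, bars ± SE) for the 36 measured genes (vertical axis), grouped by role. Filled points passed an adjusted p of 0.05: 15 genes in PNET and 20 in oligo-astrocytoma, with Vtn furthest right in both and Plvap left of 0 in both.

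Between AdCre spheres and the AdGFP sphere limma called 0 of 36 members, against 0.0172% of all transcript clusters, with 0 members at an unadjusted p under 0.05. The median member differed by 0.13 and the median named gene by 0.09. The widest differences were Acta2 at 1.39 ± 0.75 and Pdgfrb at 0.80 ± 0.57 (adjusted p = 0.9997 for each), with only 1 AdGFP array, which is assumed to vary like the other groups.

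Between the AdCre-induced and the grafted oligo-astrocytomas limma called 0 of 36 members, against 0.301% of all transcript clusters, and 1 member at an unadjusted p under 0.05. The median member differed by -0.13. Kdr was at -1.42 ± 0.87 (adjusted p = 0.840) and Vtn at -1.28 ± 1.06 (0.924), the widest differences. The AdCre-induced group is a single tumour, so its own spread is unknown.

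Other genes of vessel growth were read from 7 lists, first the ligands that act on the vessel wall. The shares of all transcript clusters to set beside each list's counts are 5.53% higher and 7.2% lower for PNET against oligo-astrocytoma, 11% and 25.9% for PNET against AdCre spheres, and 10.1% and 22.8% for oligo-astrocytoma against AdCre spheres. Of 21 angiogenic ligands 2 were higher and 2 lower in PNET than in oligo-astrocytoma. Adm (adrenomedullin), the ligand of the receptor that Ramp2 completes, read 7.20, 7.88 and 7.22 in PNET, 4.74 in the induced oligo-astrocytoma, 4.46, 5.16 and 4.34 in the grafted ones, 9.95 and 10.48 in AdCre spheres and 10.33 in the AdGFP sphere. It was 2.76 ± 0.26 higher in PNET than in oligo-astrocytoma (limma adjusted p = 0.000236), so ligand and receptor part differed in opposite directions. Tgfb1, a ligand of the receptor that endoglin serves, was 1.06 ± 0.27 higher (0.0306), and Slit2 (-1.40 ± 0.37, 0.0363) and Sema3a (-1.20 ± 0.26, 0.0160), guidance cues, were lower. Against AdCre spheres 3 ligands were higher and 8 lower in PNET, and 3 higher and 9 lower in oligo-astrocytoma. Vegfa, the main growth factor of vessels, read 9.35, 8.0 and 8.07 in PNET, 8.73 in the induced oligo-astrocytoma, 8.99, 9.36 and 9.21 in the grafted ones, and 10.79, 11.09 and 10.47 in the spheres. It was thus highest in the cultures, which have no vessels, with a change of -2.47 ± 0.39 in PNET (adjusted p = 0.00146) and of -1.87 ± 0.37 in oligo-astrocytoma (0.00528). Wnt7b, a neural signal for barrier formation, fell as well, with a change of -4.19 ± 0.49 in PNET (0.000325) and of -3.57 ± 0.46 in oligo-astrocytoma (0.000913). Pdgfd, a ligand of PDGF receptor beta, was 2.17 ± 0.41 higher in PNET (0.00340) and 1.86 ± 0.39 higher in oligo-astrocytoma (0.00690).

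Of 12 further receptors of the vessel wall 0 were higher and 3 lower in PNET than in oligo-astrocytoma. Calcrl, the partner of Ramp2, read 4.28, 4.68 and 4.70 in PNET, 7.27 in the induced oligo-astrocytoma, 5.53, 7.75 and 7.92 in the grafted ones, 6.91 and 5.91 in AdCre spheres and 6.29 in the AdGFP sphere. It was lower in PNET, with a change of -2.56 ± 0.53 (limma adjusted p = 0.0129), like Ramp2. Its spheres read within the range of the oligo-astrocytomas. Notch1, which neural cells express too, changed by -2.45 ± 0.34 (0.0017) and Adgrl4, an adhesion receptor of endothelium, by -1.24 ± 0.26 (0.0138). Adgrl4 read 5.51 to 6.13 in PNET, 6.76 to 7.43 in oligo-astrocytomas and 3.65 to 4.47 in spheres, and rose over AdCre spheres by 1.77 ± 0.31 in PNET (0.00242) and by 3.01 ± 0.30 in oligo-astrocytoma (0.000415). Against AdCre spheres the list had 2 higher and 5 lower in PNET, and 2 higher and 4 lower in oligo-astrocytoma.

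Of 17 blood-brain barrier genes 0 were higher and 4 lower in PNET than in oligo-astrocytoma, with a list median of -0.49. Mfsd2a, a lipid transporter that limits transport across the barrier, read 4.97, 5.12 and 4.99 in PNET, 8.26 in the induced oligo-astrocytoma, 7.07, 7.56 and 7.80 in the grafted ones, 8.33 and 7.32 in AdCre spheres and 7.19 in the AdGFP sphere. It changed by -2.65 ± 0.31 (limma adjusted p = 0.00074). Apcdd1, a Wnt regulator, changed by -1.70 ± 0.31 (0.00747), and the efflux pump Abcg2 by -1.49 ± 0.24 (0.00377). The fourth was Slc16a1, a lactate transporter, at -1.3 ± 0.20 (0.00339). The cultures, which have no vessels, read these 4 genes as well. Slc16a1 read 8.44 to 9.06 in oligo-astrocytomas and 9.80 to 10.19 in spheres, and Abcg2 6.47 to 6.94 in oligo-astrocytomas and 6.35 to 6.71 in spheres. Apcdd1 read 5.84 to 6.70 in oligo-astrocytomas and 4.94 to 6.17 in spheres. Of the 17, 0 were higher and 7 lower than in AdCre spheres in PNET, beside a background of 25.9% lower, and 0 higher and 3 lower in oligo-astrocytoma, beside 22.8%. In oligo-astrocytoma the glucose transporter Slc2a1 had the largest fall, -2.79 ± 0.38 (0.00111).

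Of 12 genes of tip cells and proliferating vessels 2 were higher and 0 lower in PNET than in oligo-astrocytoma, Adm and Esm1. Esm1, a proteoglycan secreted by tip cells, read 10.60, 6.56 and 9.55 in PNET, 5.94 in the induced oligo-astrocytoma, 5.81, 6.38 and 5.79 in the grafted ones, 4.95 and 5.38 in AdCre spheres and 4.75 in the AdGFP sphere. It was 2.93 ± 0.77 higher (limma adjusted p = 0.0366), with PNET 2 only just above the oligo-astrocytomas. Over AdCre spheres Esm1 was 3.74 ± 0.92 higher in PNET (0.0116), and the list had 1 higher and 3 lower in PNET and 1 higher and 3 lower in oligo-astrocytoma. Of 21 further transcription factors of endothelium 0 were higher and 3 lower in PNET than in oligo-astrocytoma, the ETS family genes Fli1 (-1.14 ± 0.32, adjusted p = 0.0463), Elk3 (-1.0 ± 0.17, 0.0052) and Ets1 (-0.99 ± 0.27, 0.0418). Against AdCre spheres 0 were higher and 9 lower in PNET, and 1 higher and 9 lower in oligo-astrocytoma. The 1 higher was Fli1, at 1.54 ± 0.36 (0.0111), which blood cells also express. Fli1 read 5.72 to 6.98 in oligo-astrocytomas and 4.31 to 5.13 in spheres. The cultures, which have no vessels, read Elk3 at 8.27 to 8.34 and Ets1 at 7.80 to 8.02. In oligo-astrocytomas Elk3 read 7.19 to 7.62 and Ets1 7.27 to 8.33. Whether the differences of Elk3 and Ets1 between the tumour types lie in endothelium was not tested.

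Of 22 further mural genes 1 was higher and 2 lower in PNET than in oligo-astrocytoma. Mylk, the myosin light chain kinase, read 8.61, 10.07 and 10.38 in PNET, 5.57 in the induced oligo-astrocytoma, 6.83, 5.36 and 5.80 in the grafted ones, 4.74 and 4.73 in AdCre spheres and 5.25 in the AdGFP sphere. It was 3.8 ± 0.46 higher (limma adjusted p = 0.000876), and PNET 1, where Acta2 was highest, had the lowest Mylk of the PNET. Cspg4 (NG2), a proteoglycan of pericytes and of oligodendrocyte precursors, changed by -1.85 ± 0.35 (0.00901), and Gucy1b1, a subunit of the nitric oxide receptor, by -1.52 ± 0.26 (0.00543). The cultures, which have no vessels, read Cspg4 at 8.32 to 8.55 and Gucy1b1 at 8.02 to 8.72. In oligo-astrocytomas Cspg4 read 7.69 to 9.05 and Gucy1b1 6.65 to 7.48. Whether these differences lie in mural cells was not tested. Against AdCre spheres the list had 1 higher and 4 lower in PNET, and 0 higher and 3 lower in oligo-astrocytoma. Of 12 basement membrane genes 0 were higher and 2 lower in PNET than in oligo-astrocytoma, Col18a1 (-1.47 ± 0.36, 0.0262) and Lamc1 (-0.95 ± 0.22, 0.0204). In the cultures Col18a1 read 6.99 to 8.45 and Lamc1 8.32 to 8.84, and both ranges overlapped those of the oligo-astrocytomas. Whether the differences of Col18a1 and Lamc1 lie in vessel cells was not tested. Against AdCre spheres this list had 1 higher and 2 lower in PNET, and 2 higher and 0 lower in oligo-astrocytoma. Over AdCre spheres Lama4, the laminin chain of endothelial basement membranes, was 1.97 ± 0.53 higher in oligo-astrocytoma (0.0192), and Mmrn2, a matrix protein of endothelium, was 0.95 ± 0.19 higher in oligo-astrocytoma (0.00559) and 0.78 ± 0.20 higher in PNET (0.0142).

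Of the markers of other cell types that dissected tissue can hold, those of microglia had the most calls over the spheres. Over 16 microglia and macrophage markers the mean level was 5.98, 6.42 and 6.81 in PNET, 8.16 in the induced oligo-astrocytoma, 7.52, 6.59 and 6.59 in the grafted ones and 4.64 to 4.82 in spheres. Of these, 7 rose in PNET and 13 in oligo-astrocytoma over AdCre spheres. PNET had the lower mean for all 16 against oligo-astrocytoma, with a median difference of -0.86, and between the tumour types 0 were higher and 1 lower in PNET, Cx3cr1 (-1.13 ± 0.32, limma adjusted p = 0.0466). PNET 1 was the lowest tumour for the mean level as it was for the endothelial median. Over 14 fibroblast and matrix markers the mean was 6.58, 6.33 and 6.68 in PNET, 5.98 in the induced oligo-astrocytoma, 6.85, 6.52 and 7.88 in the grafted ones and 5.42 to 5.79 in spheres. Grafted tumour 6, which stood high for Cdh5, Abcb1a and Vtn, was also the highest for this mean. Of the fibroblast markers 2 rose in PNET, Col3a1 (1.82 ± 0.57, 0.0318) and Pdpn (1.58 ± 0.49, 0.0297), and 1 in oligo-astrocytoma, Dcn (4.25 ± 1.3, 0.0327). Between the tumour types 0 of the 14 were called in either direction, with 1 at an unadjusted p under 0.05. Lymphocyte, platelet and red cell markers gave 0 calls between the tumour types, among 10, 7 and 3 measured. Over AdCre spheres these lists gave 0 calls in PNET, with medians of -0.19, -0.21 and 0.06. In oligo-astrocytoma 1 lymphocyte and 1 platelet marker were lower and 1 red cell marker higher, with medians of -0.26, -0.25 and 0.02. The part of these cells in the values of the vessel genes was not tested.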

How the data were processed

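RNA of 10 mouse samples was measured on 1-colour exon arrays. The deposited values are log2 expression, which per the submitters' processing notes were made by the authors with Partek and RMA on build mm8; the tools' versions are not given, and the series' text names 2 array versions. They were used with no further normalization or filter. The probe annotation gives a single gene to 14939 of the transcript clusters, more than 1 to 989 and no gene to 7310. The arrays were modelled in 4 groups (5 for the comparison of induced and grafted oligo-astrocytoma) by lmFit and eBayes of limma 3.58.1, R 4.3.3. P-values are two-sided and Benjamini-Hochberg adjusted across all 23238 transcript clusters, with a threshold of 0.05. Intervals are 95%, from 9.25 degrees of freedom. On simulated data with the same groups the fit recovered 37.3% of 2-fold changes for PNET against oligo-astrocytoma. It recovered 19.4% for PNET and 26.9% for oligo-astrocytoma against AdCre spheres. Of 4-fold changes it recovered 80.6%, 68.7% and 67.2% in the same order, so many differences near 1 log2 unit would be missed.

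The members and the 12 lists beside them were chosen with earlier results of these data known. Full statistics follow a rule: up to 6 rises and 6 falls per main comparison and the leading member of each role by tumour level, and of each list up to 3 per direction; further genes are named after their values were seen. Alternatives were quantile normalization, median centring, brighter clusters only, trended and robust variance, array weights, compared groups only, other groupings, a replicate block, and leaving out each array.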

Additional observations from a re-analysis of the deposited data

How the results depend on the processing

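No call reversed under the alternatives run. Counting uncalled members too, the sign of the difference changed under at least 1 alternative for 13 of 36 in PNET against oligo-astrocytoma, and for 6 in each tumour type against AdCre spheres. Of the values of called members, 40 of 45 for PNET against oligo-astrocytoma, 164 of 191 for PNET against AdCre spheres and 224 of 269 for oligo-astrocytoma against AdCre spheres stayed on their side of the threshold, and the rest lost significance. For PNET against oligo-astrocytoma (1 higher, 2 lower), 2 were higher under quantile normalization, median centring, brighter transcript clusters only and compared groups only. With the AdCre-induced tumour alone as oligo-astrocytoma 0 were higher and 0 lower, from a group of 1 array, where the differences of Podxl, Ramp2 and Cd34 kept their sign (adjusted p = 0.0669, 0.153 and 0.111). Leaving out each replicate gave 1 to 3 higher and 1 to 4 lower. For PNET against AdCre spheres (13 higher, 2 lower), brighter transcript clusters only, which tests 13 members, gave 1 lower, and leaving out each replicate gave 7 to 13 higher and 1 to 2 lower. For oligo-astrocytoma against AdCre spheres (18 higher, 2 lower), the same filter gave 8 higher and 0 lower, and leaving out each replicate gave 6 to 18 higher and 0 to 2 lower. Quantile normalization moved the median of all transcript clusters, to -0.07 against -0.21 as deposited in PNET minus AdCre spheres, and to -0.10 against -0.23 in oligo-astrocytoma minus AdCre spheres; Ramp2 (adjusted p = 0.0803) and Abcc9 (0.0686) in PNET were then lost, and so were Cldn5 (0.0522), Vwf (0.0597), Slco1a4 (0.0504) and Abcb1a (0.0580) in oligo-astrocytoma. PNET and AdCre spheres share replicate numbers 1 and 2. The deviations of same-numbered samples from their group means correlated at -0.033 and -0.058. With 2 AdCre spheres their deviations mirror each other, so these values cannot tell whether the samples are paired. With a replicate block, which leaves 1 residual degree of freedom, 9 members were higher and 2 lower in PNET. Kdr was then added, and Eng, Ptprb, Abcc9, Acta2 and Tagln were lost. The cause of these shifts was not tested. With 1 to 4 arrays a group, the number of arrays, and dim values such as those of Emcn, Tek and Slco1a4 in spheres, limit what can be seen.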
